A study of Mus musculus with 6 samples.

Results

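The postsynaptic side of the neuromuscular junction was examined through 10 genes in the tibialis anterior (TA), a fast muscle at the front of the lower leg. The genes were listed by their known role, but with earlier results of these data known, so counts of called members are a description. They are the acetylcholine receptor subunits Chrna1, Chrnb1, Chrnd and Chrne, the junction organizers Musk, Lrp4, Rapsn and Dok7, and the enzyme Ache with its anchor Colq. All 10 were found among the 45777 genes of the count table and all 10 passed the filter on low counts, as did 16188 genes in all. The TA of 6 mice was sequenced, 3 treated with vehicle and 3 with BML-260, a small molecule reported to inhibit the phosphatase DUSP22. The study allows that its level in muscle may be too low to inhibit the enzyme. It also leaves room for off-target effects. All were male C57BL/6J mice, 24 months old by the labels, while the study's methods give a range that begins there and its results name an older age. BML-260 was given at 5 mg/kg for 1 month, by daily intraperitoneal injection according to the methods, and the vehicle was DMSO with a polysorbate detergent. The comparison therefore shows old muscle given BML-260 against old muscle given vehicle, and no young muscle was part of it.

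The neuromuscular junction is the synapse at which a motor neuron drives a muscle fiber. The nerve releases agrin, which binds LRP4 on the fiber. LRP4 activates the receptor tyrosine kinase MuSK together with its adaptor DOK7, and rapsyn then clusters acetylcholine receptors under the nerve ending. The receptor is a pentamer with 2 alpha subunits, 1 beta, 1 delta and, in the adult, 1 epsilon subunit (Chrne) in place of the fetal gamma subunit (Chrng). In innervated muscle these genes are transcribed mainly by the few nuclei beneath the synapse. When a fiber loses its nerve, Chrna1, Chrnd, Chrng, Musk and the regulator Myog are known to be transcribed along the whole fiber, whereas Chrne stays largely synaptic.

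With BML-260, Chrna1, Chrnb1 and Musk were lower and the libraries of the other members overlapped between the groups. A gene was called where its level changed 1.3-fold or more and its unadjusted p was under 0.05 in the quasi-likelihood test of edgeR. In this way 3 of the 10 members were called, all 3 lower and 0 higher, where 5.75% of all tested genes were called in either direction, 4.86% lower and 0.896% higher. After Benjamini-Hochberg adjustment over all tested genes, edgeR called 0 of 16188 genes (966, or 5.97%, had an unadjusted p under 0.05), so no member passed on that scale. DESeq2 called 4 members, all lower, against 6.31% of all genes in either direction and 5.19% lower, and 1 of them, Chrna1, had an adjusted p under 0.05, as did 0.587% of all genes. The median log2 fold change over the 10 members was 0.089, beside -0.0039 over all tested genes, with 6 members above 0 and 4 below. A single direction therefore did not describe the junction genes as a group. In whole muscle, fewer cells or nuclei that express a gene and less RNA from each of them cannot be told apart.

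The libraries held between 39522890 and 56998875 counts, and each member had between 43 and 5738 raw counts in a library. With vehicle replicate 1, 2 or 3 left out, 6, 2 and 4 members were called, where 13.3%, 7.22% and 3.98% of all tested genes were. With BML-260 replicate 1, 2 or 3 left out, 3, 2 and 3 members were called, where 4.19%, 3.00% and 3.91% of all tested genes were. Each library came from the TA of a mouse. The edgeR p-values set the group difference against the spread between these libraries, which the fit moderates across genes. Vehicle replicate 3 stood apart, with correlations of log2 CPM across genes of 0.957 to 0.965 with the other libraries, where the other 5 correlated at 0.988 to 0.995 among themselves. The muscle fiber markers were abundant in every library, and 0 of the 8 were called. They were not even across libraries. Their summed normalized count (raw counts divided by the library's size factor) was 3.54e+06 in vehicle replicate 3. In the other 5 libraries it was 5.45e+06 to 6.61e+06. Vehicle replicate 3 was the highest library for 1 of the 8, Myh2.

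The regulatory sequences just before the start of Chrna1 and Chrne are shown because these subunits of 1 receptor differed in the data that follow. Both are on the minus strand of GRCm38.p6 and were taken from RefSeq. Chrna1 lies at chr2:73563281-73580338 and the stretch shown at chr2:73580339-73580588. Chrne lies at chr11:70614883-70619213 and the stretch shown, which stops where an annotated exon begins, at chr11:70619217-70619444. Capitals mark 2 motifs, searched on both strands: CANNTG, the E-box bound by myogenic regulatory factors such as MYOG, and CCGGAA, the core of the N-box known from subunit genes of the adult receptor.
Chrna1: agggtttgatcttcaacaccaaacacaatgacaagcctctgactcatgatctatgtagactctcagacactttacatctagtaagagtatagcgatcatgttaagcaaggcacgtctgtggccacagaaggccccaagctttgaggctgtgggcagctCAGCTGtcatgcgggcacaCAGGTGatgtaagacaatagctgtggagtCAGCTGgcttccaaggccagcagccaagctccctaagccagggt
Chrne: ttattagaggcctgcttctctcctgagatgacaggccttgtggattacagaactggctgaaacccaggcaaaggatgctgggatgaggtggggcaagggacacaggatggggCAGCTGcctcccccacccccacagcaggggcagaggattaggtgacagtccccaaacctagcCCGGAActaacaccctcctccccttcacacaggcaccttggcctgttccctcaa
Chrna1 had 3 E-boxes, whose first bases lie 92, 73 and 44 bases before the start, and no CCGGAA. Chrne had 1 E-box, 138 bases before the start of its promoter window, and 1 CCGGAA, 76 bases before it. That window, chr11:70619195-70619444, reaches into the annotated gene. Its distances are therefore longer than those counted from the end of the stretch shown. Promoter windows were found for 6 members. In the 250 bases before each window's start, Chrnb1 and Musk also had 3 E-boxes. Ache had 1, and the 2 windows of Dok7 had 1 or 0. Some of these windows reach into the annotated gene. The Musk window lies at chr4:58285712-58285961 and the gene begins at 58285729, so all 3 of its E-boxes are inside the gene. The Chrnb1 E-box 29 bases before the window's start and the Dok7 E-box are also inside their annotated genes. Of 32851 windows of the same length 12.2% had at least 3 and 66.2% at least 1. CCGGAA was found in Chrne alone among these members and in 12% of all windows. A match of letters is a description and is not a bound site. Chrnd, Lrp4, Rapsn and Colq were not searched.

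Chrna1 encodes the alpha subunit, which carries most of the acetylcholine binding site. Its normalized counts, which are raw counts divided by the library's size factor, were 645, 1688 and 1088 in vehicle replicates 1, 2 and 3 and 370, 403 and 438 in the BML-260 replicates. The groups did not overlap, and the vehicle libraries spread far more widely than the treated ones. The log2 fold change of BML-260 over vehicle was -1.50 ± 0.31 (SE), which is 2.83-fold lower, with an unadjusted p of 0.00114 and a Benjamini-Hochberg adjusted p of 0.553 in edgeR. The adjusted p by DESeq2's Wald test was 0.00225. Leaving out vehicle replicate 2, the highest library, gave -1.11 (edgeR unadjusted p = 0.00218), and Chrna1 was called under all 17 alternative settings tried.

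Chrnb1 encodes the beta subunit, whose phosphorylation downstream of MuSK helps tie the receptor to rapsyn. Normalized counts of Chrnb1 were 1508, 2340 and 2017 in vehicle and 1271, 1400 and 1447 with BML-260. The groups did not overlap, but the lowest vehicle library lay close to the highest treated one. The log2 fold change was -0.51 ± 0.18 (SE; edgeR unadjusted p = 0.0197, Benjamini-Hochberg adjusted p = 0.782), or 1.43-fold lower. The call was lost without vehicle replicate 2 (-0.36, edgeR unadjusted p = 0.0794). It was also lost without BML-260 replicate 1 (-0.46, edgeR unadjusted p = 0.0753) and without BML-260 replicate 2 (-0.52, edgeR unadjusted p = 0.0539). With DESeq2 log2 fold changes shrunken by apeglm, which draws uncertain changes towards 0, Chrnb1 was -0.0035 and not called, whereas Chrna1 was called at -1.34.

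Chrnd encodes the delta subunit, which pairs with an alpha subunit at a binding site for acetylcholine. Normalized counts of Chrnd were 59.9, 252 and 79.0 in vehicle and 43.1, 71.8 and 54.0 with BML-260. Vehicle replicate 2 was far above every other library, and the remaining vehicle libraries overlapped the treated ones. The log2 fold change was -1.20 ± 0.54 (SE) and did not pass edgeR's test (unadjusted p = 0.0547, adjusted p = 0.788). Without vehicle replicate 2 the value was -0.31 (edgeR unadjusted p = 0.414), so its size rested on that library. Chrnd was called lower with DESeq2 (unadjusted p = 0.0252), with the replicate number as a block in edgeR (-0.96, unadjusted p = 0.0354) and in 4 further settings of the 17, and shrunken by apeglm it was -0.0012.

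Chrne encodes the epsilon subunit of the adult receptor. In vehicle it had normalized counts of 202, 342 and 261, and with BML-260 of 291, 273 and 291. The treated libraries lay within the vehicle range, with a log2 fold change of 0.088 ± 0.21 (SE; edgeR unadjusted p = 0.692, Benjamini-Hochberg adjusted p = 0.918), a sign that turned on the TPM scale. All 4 receptor subunits, Chrne included, had their highest normalized count in vehicle replicate 2. On the TPM scale Chrnb1 and Chrne were highest in vehicle replicate 3 instead.

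**Figure D1:**
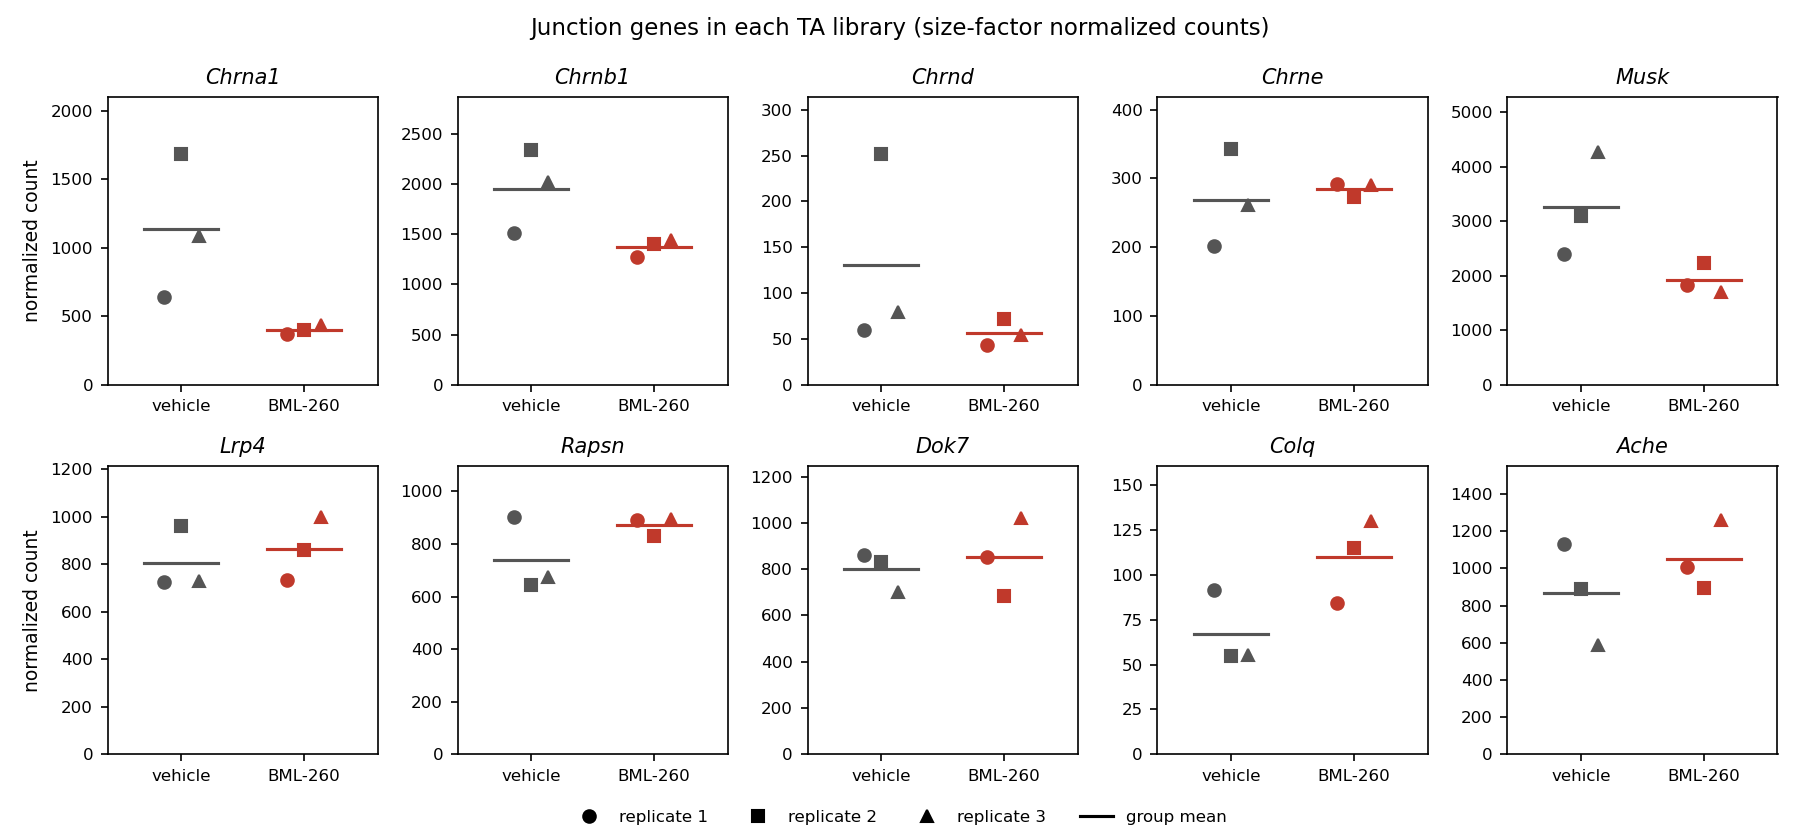
Normalized counts (raw counts divided by the library's size factor) of the 10 junction genes in the 3 vehicle and 3 BML-260 libraries. Each point is a library, its shape gives the replicate number and the line is the group mean. Chrna1, Chrnb1 and Musk have no overlap between the groups, and for the 4 receptor subunits the highest point is vehicle replicate 2.

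Musk encodes the muscle-specific kinase that receives the agrin signal through LRP4. Normalized counts of Musk were 2400, 3088 and 4275 in vehicle and 1832, 2229 and 1698 with BML-260. The groups did not overlap, and vehicle replicate 3 was the highest library. The log2 fold change was -0.76 ± 0.22 (SE; edgeR unadjusted p = 0.00794, Benjamini-Hochberg adjusted p = 0.699), or 1.70-fold lower. Without vehicle replicate 3 it was -0.52 (edgeR unadjusted p = 0.00781), and the call stood under all 17 alternatives, with -0.54 after shrinkage by apeglm.

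The partners of MuSK were not called. Lrp4, the agrin receptor, had normalized counts of 725, 960 and 728 in vehicle and 733, 859 and 998 with BML-260. The groups overlapped, with a log2 fold change of 0.099 ± 0.18 (SE). Dok7, the adaptor that activates MuSK from inside the fiber, had 862, 833 and 702 in vehicle and 850, 685 and 1021 with BML-260. The groups overlapped here too, and the log2 fold change was 0.090 ± 0.18 (SE). The signs for Lrp4 and Dok7 turned on the TPM scale. Rapsn, the scaffold that clusters receptors, had 901, 642 and 674 in vehicle and 892, 832 and 894 with BML-260, with a log2 fold change of 0.24 ± 0.16 (SE; edgeR unadjusted p = 0.189, Benjamini-Hochberg adjusted p = 0.788). Vehicle replicate 1 was the highest of all 6 libraries and the other 2 vehicle libraries the lowest. Without that library Rapsn was called higher (0.41, edgeR unadjusted p = 0.0239).

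Ache encodes acetylcholinesterase, which ends each signal by breaking down acetylcholine in the cleft. Its normalized counts were 1133, 889 and 589 in vehicle and 1006, 893 and 1259 with BML-260, a log2 fold change of 0.27 ± 0.25 (SE; edgeR unadjusted p = 0.303, Benjamini-Hochberg adjusted p = 0.802). The groups overlapped. Colq, the collagen tail that anchors the enzyme in the synaptic basal lamina, had 91.3, 54.9 and 55.1 in vehicle and 84.5, 115 and 130 with BML-260. Its log2 fold change of 0.70 ± 0.31 (SE) was the highest of the 10 members but did not pass edgeR's test (unadjusted p = 0.0538, adjusted p = 0.788), and BML-260 replicate 1 lay below vehicle replicate 1. Without vehicle replicate 1 Colq was called higher (0.99, edgeR unadjusted p = 0.0147), and likewise without BML-260 replicate 1 (0.86, edgeR unadjusted p = 0.0428). Exons of Rapsn and Ache overlap genes on the opposite strand (Gm13778 and Gm42456) and those of Colq overlap Gm49387 on the same strand, so their counts could hold reads of these neighbours.

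**Figure D2:**
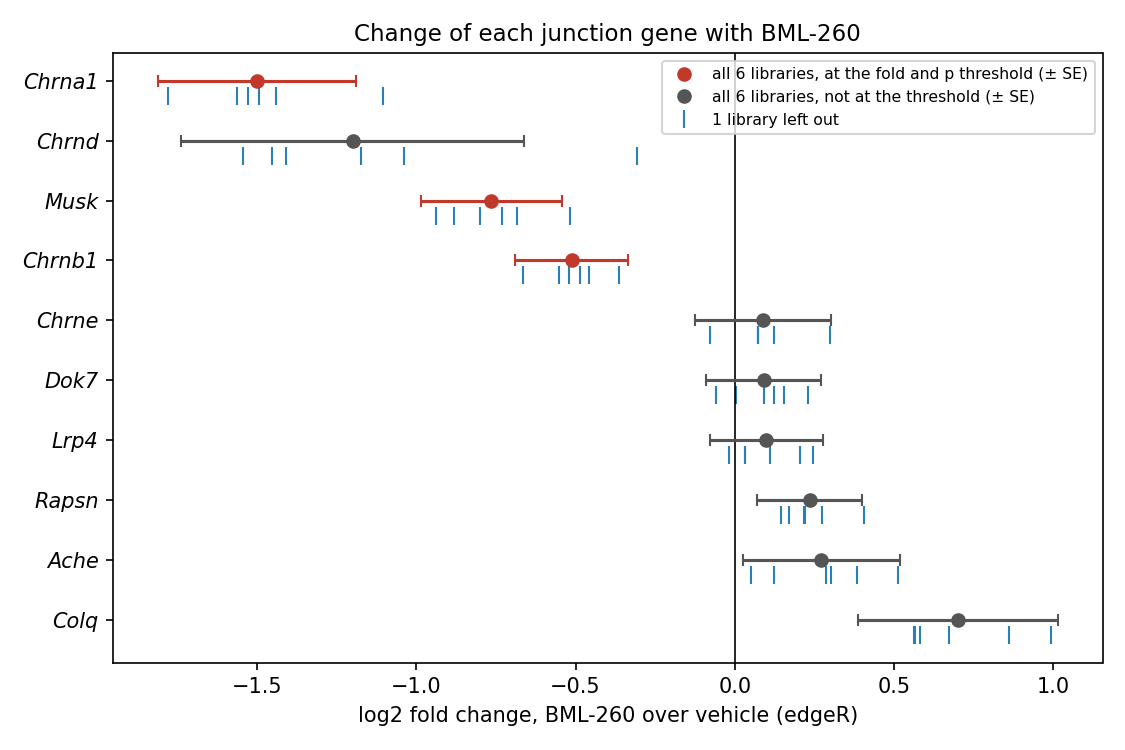
Log2 fold change of BML-260 over vehicle for each junction gene from edgeR (points, with the standard error as bars; red where the fold and p threshold was met), with 1 blue tick for each fit that left out 1 of the 6 libraries. Chrna1, Chrnb1 and Musk met the threshold with all libraries, and the ticks of Chrne, Dok7 and Lrp4 fall on both sides of 0.

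Groups without overlap were counted as a further description. Of the 10 members, 3 were lower in every BML-260 library than in every vehicle library, where 6.75% of all tested genes were, and 0 were higher in every one, where 5.41% were. The 3 were Chrna1, Chrnb1 and Musk.

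Levels were compared between members on the TPM scale, which accounts for transcript length. In vehicle muscle Chrnb1 was highest at 37.1 ± 11.6 TPM (SD, n = 3), followed by Musk (20.8 ± 10.4), Rapsn (17.7 ± 3.91), Ache (14.1 ± 3.47), Dok7 (10.8 ± 1.15), Chrna1 (10.3 ± 4.32), Chrne (6.57 ± 1.84), Lrp4 (4.25 ± 0.539), Chrnd (1.62 ± 1.10) and Colq (0.798 ± 0.221). Of neighbours in this order, only Lrp4 and Chrnd had ranges over the 3 libraries that did not overlap. With BML-260 the order began with Chrnb1 at 22.9 ± 2.71 TPM, Rapsn at 18.7 ± 1.08 and Ache at 16.1 ± 2.97. It went on with Musk at 10.4 ± 1.64, Dok7 at 10.3 ± 2.18, Chrne at 6.28 ± 0.324 and Lrp4 at 3.96 ± 0.753, and ended with Chrna1 at 3.27 ± 0.464, Colq at 1.21 ± 0.187 and Chrnd at 0.663 ± 0.201. The ranges of Chrnb1 and Rapsn, Rapsn and Ache, Musk and Dok7, and Lrp4 and Chrna1 overlapped in that group, and those of the other neighbours did not. Musk stood between Chrnb1 and Rapsn in vehicle muscle and after Ache in treated muscle. Chrna1 stood before Chrne in vehicle muscle and after it in treated muscle.

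The balance of subunits was measured within each library as a ratio of TPM values, in which the size of the library cancels. The ratio of Chrne to Chrna1 was 0.851, 0.550 and 0.647 in vehicle and 2.15, 1.86 and 1.80 with BML-260. Chrne was thus below Chrna1 in all 3 vehicle libraries and above it in all 3 treated ones. The difference of the mean log2 ratios was 1.52 ± 0.20 (SE), with p = 0.1 in a 2-sided exact permutation test, the smallest p that 3 against 3 libraries allow, and 0.175 after Benjamini-Hochberg adjustment over the 7 ratios computed. With 1 library left out in turn the difference stayed between 1.38 and 1.69.

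The ratio of Chrnb1 to Chrna1 was 4.81, 2.86 and 3.92 in vehicle and 7.18, 7.04 and 6.81 with BML-260, a log2 difference of 0.89 ± 0.22 (SE). That of Rapsn to Chrna1 was 3.70, 1.01 and 1.64 in vehicle and 6.42, 5.49 and 5.42 with BML-260, a log2 difference of 1.65 ± 0.55 (SE). Neither ratio overlapped between the groups, and each had an exact permutation p of 0.1 (adjusted 0.175). Both share their denominator with the ratio of Chrne to Chrna1, so the 3 are not independent. The delta subunit did not separate from alpha: the ratio of Chrnd to Chrna1 averaged 0.152 in vehicle and 0.201 with BML-260 (exact permutation p = 0.3), and the groups overlapped.

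Among the organizers, the ratio of Musk to Lrp4 was 3.59, 3.71 and 7.07 in vehicle and 2.92, 3.01 and 2.11 with BML-260. The groups did not overlap, with a log2 difference of -0.78 ± 0.36 (SE; exact permutation p = 0.1, adjusted 0.175). Without vehicle replicate 3 the difference was -0.46. The ratio of Dok7 to Musk averaged 0.586 and 1.02 (exact permutation p = 0.2) and that of Colq to Ache 0.0586 and 0.0756 (p = 0.3), and in both the groups overlapped.

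**Figure D3:**
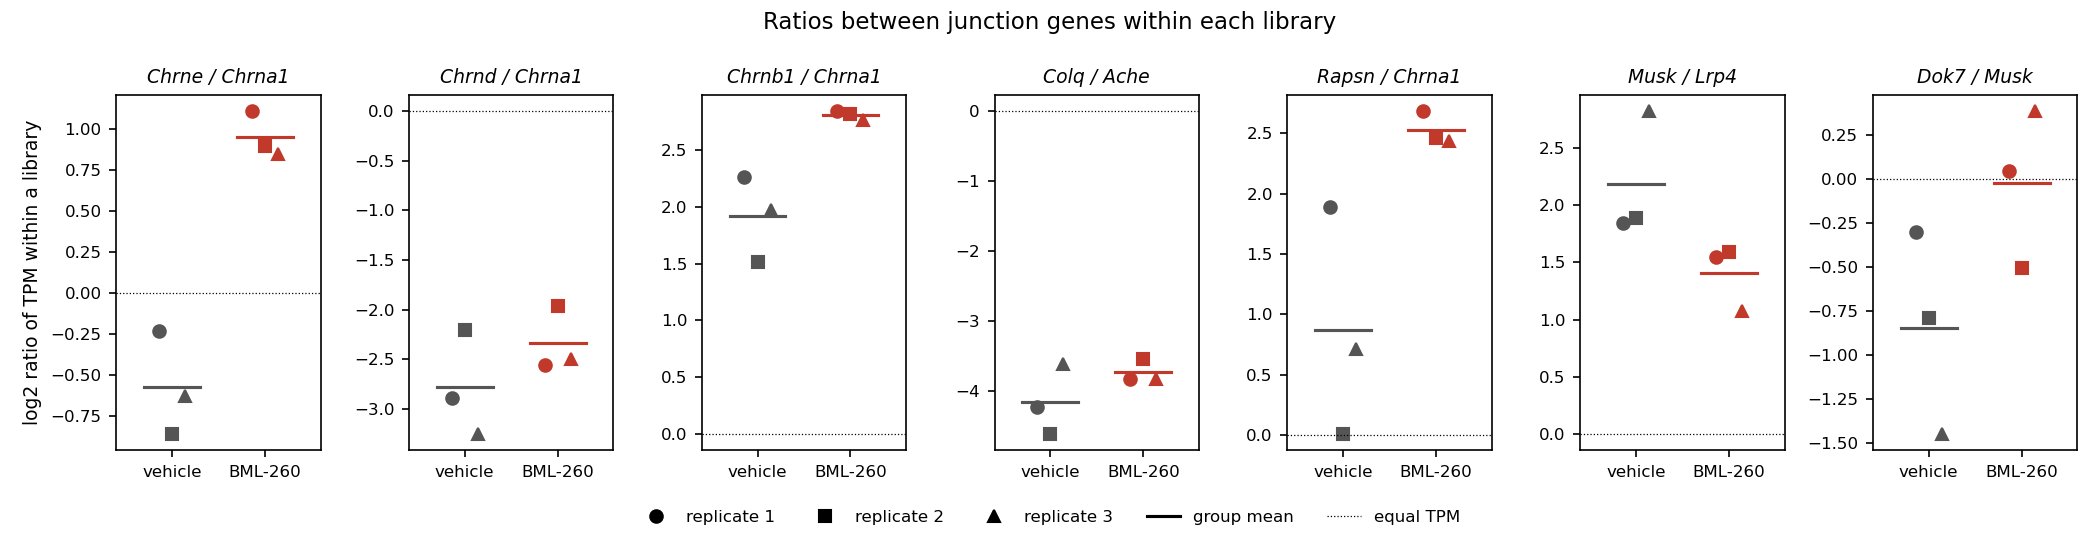
Log2 ratios of TPM between pairs of junction genes within each library, with a panel for each of the 7 ratios and its own axis range. Points are libraries (shape for the replicate number), lines are group means of the log2 ratio and the dotted line marks equal TPM. The ratio of Chrne to Chrna1 lies below equality in all 3 vehicle libraries and above it in all 3 BML-260 libraries.

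The fetal subunit Chrng was close to the limit of detection. Its normalized counts were 14.3, 65.1 and 13.4 in vehicle and 2.59, 24.9 and 0 with BML-260. It was highest in vehicle replicate 2, as the adult subunits were by normalized count. The log2 fold change was -1.70 ± 1.14 (SE; edgeR unadjusted p = 0.172, Benjamini-Hochberg adjusted p = 0.788), and a library at 0 makes this value depend on the counts that edgeR adds. Chrng was called lower with the replicate block (-2.28, edgeR unadjusted p = 0.0245), with limma voom (-3.12, limma unadjusted p = 0.0168) and without BML-260 replicate 2 (-4.27, edgeR unadjusted p = 0.0129). Agrn, which encodes agrin, had 401, 448 and 501 in vehicle and 430, 333 and 767 with BML-260, a log2 fold change of 0.18. The groups overlapped for both genes. The form of agrin that the nerve makes comes from motor neurons, whose cell bodies are not in the muscle.

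Among 36 other genes of the junction (laminins, the dystroglycan and syntrophin scaffold, ErbB receptors, ETS factors, MuSK effectors), 35 were tested and 0 were called by edgeR, also with 0 at an unadjusted p under 0.05. DESeq2 called 1, higher, where 1.12% of all tested genes were. Over the list, log2 fold changes had a median of 0.10, and 20 were above 0 and 15 below. In 6 of the 35 the BML-260 libraries all lay above the vehicle libraries, and in 0 all below, beside 5.41% and 6.75% of all tested genes. The gene called by DESeq2 was Scn4a, named after its values were seen, which encodes the sodium channel that carries the fiber's action potential and is dense at the junction. It had normalized counts of 25824, 21051 and 15719 in vehicle and 26812, 28452 and 28190 with BML-260, and a log2 fold change of 0.41 (edgeR unadjusted p = 0.0884). Without vehicle replicate 1, edgeR called 4 of these genes, Scn4a higher and Etv5, Syne1 and Ank3 lower, in a fit that called 13.3% of all tested genes.

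Genes known to respond to loss of the nerve were put in a further list, which shares Chrng with the other junction genes. By edgeR 6 of these 11 were called, all 6 lower, with a median log2 fold change of -1.66, against 4.86% of all tested genes called lower. DESeq2 also called 6, of which 5 had an adjusted p under 0.05. The list and its members were chosen with results of these libraries known, so the count is a description. The list was not split by the direction that loss of the nerve gives each gene. Runx1, a transcription factor induced in denervated fibers, had normalized counts of 655, 2061 and 1537 in vehicle and 256, 191 and 271 with BML-260. Myog, an E-box factor that activates receptor subunit genes, had 330, 465 and 1318 in vehicle and 135, 159 and 273 with BML-260. Neither gene overlapped between the groups, and the log2 fold changes were -2.57 for Runx1 and -1.91 for Myog (edgeR adjusted p = 0.553 and 0.649). Without vehicle replicate 3 Myog was -1.08.

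Gadd45a, a stress gene of denervated muscle, fell by 2.02 on the log2 scale. Its normalized counts were 1915, 4904 and 5082 in vehicle and 769, 1148 and 1031 with BML-260. Ncam1, an adhesion molecule that spreads over denervated fibers, had 282, 1054 and 603 in vehicle and 222, 228 and 317 with BML-260, a log2 fold change of -1.34 (-0.80 without vehicle replicate 2), and its groups overlapped. The other 2 called were Myh3 (-1.66), the embryonic myosin, and Sln (-4.06, and -2.92 without vehicle replicate 2), an inhibitor of the calcium pump. Hdac4, Hdac9, Dach2, Myh8 and Chrng were not called, with log2 fold changes of -0.33, 0.055, 0.29, 0.17 and -1.70. Of the 11 genes, 7 were highest by normalized count in vehicle replicate 2 and 3 in vehicle replicate 3. The count was 6 to 7 with 1 library left out in turn, and 3 (Runx1, Gadd45a and Myh3) after shrinkage by apeglm.

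**Figure D4:**
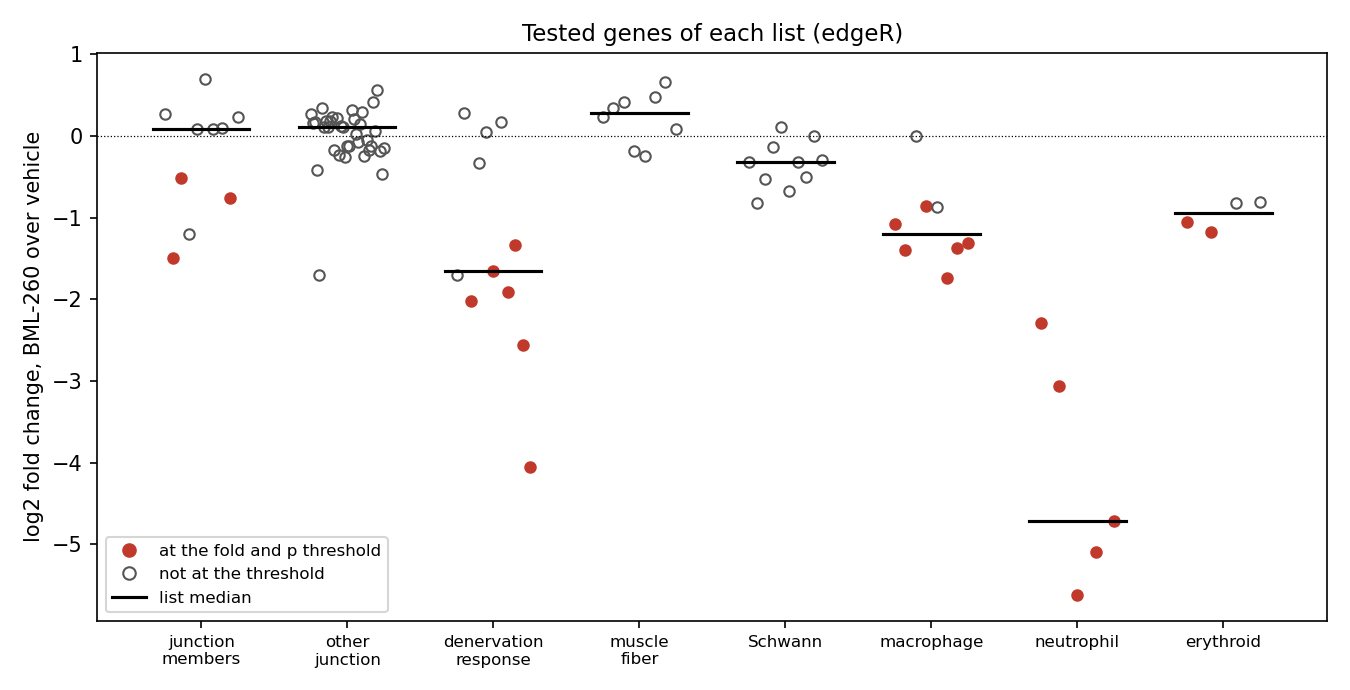
Log2 fold change of BML-260 over vehicle for each tested gene of 8 lists, from edgeR. Filled red points met the fold and p threshold, open points did not and the bar is the list's median, which is 0.089 for the 10 junction genes, 0.10 for other junction genes and -1.66 for the denervation response list.

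Genes with a pattern most like that of Chrna1 were found by the root mean square difference of log2 normalized counts, each centred on its mean over the 6 libraries, among 11341 genes with a mean normalized count of at least 100. The 5 nearest were Atp13a3, Id2, Ncam1, Arpp21 and Tiam2, at differences of 0.18 to 0.24. Atp13a3, the first of them, had 3902, 9749 and 6529 in vehicle and 2330, 3265 and 2415 with BML-260, so it too was highest in vehicle replicate 2. The 5 nearest to Musk were Erbin, Resf1, Twf1, LOC102636101 and Snhg4, at differences of 0.090 to 0.11. Erbin, which encodes a scaffold that binds ErbB2, had 5083, 7588 and 10384 in vehicle and 4027, 4755 and 4068 with BML-260. For Musk and Erbin alike the 3 vehicle libraries stood in the same order, with replicate 3 highest. All these genes were picked by likeness over the same 6 libraries. Shared highest libraries and directions therefore follow from the selection and are no separate result.

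Markers of other cells also differed between the libraries, and their part in the junction results was not tested. The counts stand beside 4.86% of all tested genes called lower. For macrophages 6 of 8 markers were called lower with BML-260, and their summed normalized count was 5289 to 14689 in vehicle and 3123 to 3889 with BML-260. For neutrophils 5 of 6 markers were tested and all 5 were called lower (396 to 8268 in vehicle and 114 to 228 with BML-260). Retnlg was at 0 in 2 BML-260 libraries and so passed the filter on low counts through its vehicle libraries. Its call therefore adds no support. Ly6g, which was not tested, was at 0 in all 3 BML-260 libraries and in 2 vehicle libraries. For erythroid cells 2 of 4 were called lower (28936 to 94165 and 24520 to 32133). For Schwann cells, which cap the nerve ending, 0 of 10 markers were called, and the summed count was 1902 to 6224 in vehicle and 2406 to 2724 with BML-260. Vehicle replicate 3 was the highest library for all 8 macrophage, all 5 tested neutrophil and all 4 erythroid markers and for 9 of the 10 Schwann markers. By normalized count it was the highest library for 1 of the 10 junction genes, Musk. On the TPM scale it was also highest for Chrnb1, Chrne and Rapsn. Without it, 4 members were called, where 3.98% of all tested genes were, and the log2 fold changes were -1.53 for Chrna1, -0.49 for Chrnb1, -1.45 for Chrnd and -0.52 for Musk. For satellite cells 1 of 5 markers was called lower, for fibroblasts 1 of 6, and for endothelial cells 0 of 5.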

How the data were processed

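The authors sequenced RNA from the TA muscle of 3 vehicle and 3 BML-260 mice with a stranded total RNA kit. The authors trimmed reads with Trimmomatic 0.38, mapped them with HISAT2 2.1.0 and Bowtie2 2.3.4.1 to mm10 (per the labels) and assembled transcripts with StringTie 2.1.3b. The authors deposited raw counts per gene for all 6 libraries and TPM per library, scaled for transcript length and library total. The annotation and the counting rules for strand and for reads with several hits are not given in the sources used here. Of the TPM genes, 16800 have a count.

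Members were matched by symbol in the TPM tables and joined to the counts by gene ID. The counts were fitted by edgeR 4.0.16 under R 4.3.3 (filterByExpr, TMM, quasi-likelihood F-test, Benjamini-Hochberg over 16188 genes). A gene was called where it changed 1.3-fold or more with unadjusted p below 0.05. Normalized counts used the size factors of DESeq2 1.42.0. The script was tested on simulated data. TPM ratios were compared by 2-sided exact permutation tests with scipy 1.17.1. Alternatives were RLE and upper quartile normalization, other count filters, a replicate block, leaving out each library, DESeq2, apeglm 1.24.0, limma 3.58.1 voom with quality weights, the robust test, and limma trend on log2(TPM + 1) and log2(TPM + 0.1). Exon overlaps came from GENCODE M21 and promoters (250 bases before the start) from RefSeq. Figures were drawn with matplotlib 3.10.9.

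Genes named are the 10 members, Chrng, Agrn, genes of the other junction and denervation lists at the threshold, and the 5 genes nearest to Chrna1 and to Musk; others were named after their values were seen. The members and all lists were chosen with earlier results of these data known, and 1 gene of a list is not reported here. Replicate numbers were not treated as pairs, since no label ties them to a shared litter, batch or day.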

Additional observations from a re-analysis of the deposited data

How the results depend on the processing

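The count of 3 called junction genes became 5 with no filter on low counts (Chrnd and Colq joined) and ranged from 2 to 6 with 1 library left out in turn, 2 without vehicle replicate 2 or BML-260 replicate 2 and 6 without vehicle replicate 1. Their median log2 fold change, 0.089, was -0.077 with log2(TPM + 1) and -0.091 with log2(TPM + 0.1), where the median of all genes was also lower, at -0.098 and -0.14, and it was also below 0 without vehicle replicate 1 (-0.022) and without BML-260 replicate 3 (-0.039). The count of 0 called among the other junction genes became 2 with the replicate block (Chrng and Syne1), 1 with DESeq2 (Scn4a) and 1 with voom (Chrng), and ranged from 0 to 4 with 1 library left out. The denervation count, 6, was between 6 and 8 except with apeglm, where it was 3 and the count of junction genes 2; these apeglm counts were added after the data were seen. Some signs turned. Chrne was -0.027 and -0.025 with the pseudocounts of 1 and 0.1 and -0.077 to 0.30 with 1 library left out. Lrp4 was -0.010 with voom, -0.089 and -0.11 on the TPM scale and -0.018 to 0.25 with 1 library left out, and Dok7 was -0.066 and -0.072 on the TPM scale and -0.060 to 0.23. The cause was not tested. No sign of the other 7 members turned under the 17 alternatives.

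The replicate block raised the calls over all genes from 931 to 1057 and among the junction genes from 3 to 4 (Chrnd joined). Deviations of same-numbered libraries correlated at 0.16, 0.054 and 0.11, and all 6 libraries correlated best with their own number, a hint from the data and not from the design. Over all genes, the calls ranged from 503 (without BML-260 replicate 2) to 2223 (without vehicle replicate 1), so the loss of 1 library moved the background as well. The ratio of Chrne to Chrng was not run, as Chrng has no TPM value here. Depth limits Chrng, whose raw counts ran from 0 to 51, more than the members.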
